A study of Mus musculus with 20 samples.

Results

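The 42 genes described here act in G2 phase and mitosis, and were taken as a named list of 42 of the 31053 genes in the count tables. All 42 were detected in B-like and in T-like cells, though a few were at 0 in single libraries. The list was read in single-cell RNA-sequencing (scRNA-seq) of unselected live cells from spleen and sub-mandibular lymph node of 13 mice in 20 libraries. Each library is the spleen or lymph node of 1 mouse, and 7 mice gave both tissues.

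The mice carried human cDNA transgenes expressed from an immunoglobulin heavy chain promoter and Eµ enhancer in immature and mature B cells, on a strain labelled C57BL/6N. The groups were 5 spleens of Eµ-PRMT5 mice (the arginine methyltransferase PRMT5), 4 spleens and 3 lymph nodes of Eµ-TCL1 mice (the oncogene TCL1, a model of chronic lymphocytic leukemia), and 4 spleens and 4 lymph nodes of Eµ-PRMT5/TCL1 mice, which carried both. Tissues were collected when mice met criteria for removal, so disease stage was not held constant. No mouse without a transgene was sequenced here, so no comparison is against normal tissue. The label of 1 Eµ-PRMT5/TCL1 mouse carries the suffix "-RT", whose meaning the labels do not give. The title of Eµ-PRMT5 spleen 3 is also the name of a founder animal.

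Cells divide in a fixed order. Cyclin A and cyclin B activate the kinase Cdk1, the spindle and kinetochores align chromosomes under the watch of checkpoint kinases, and Cdc20 and Ube2c drive the anaphase-promoting complex that destroys cyclins and lets chromosomes part. The genes for these proteins are switched on together late in the cycle and are kept off in resting cells, which form most of the circulating compartment in chronic lymphocytic leukemia, while division takes place mainly in lymphoid tissue. Transcription of many of them depends on a short promoter element, the cell cycle genes homology region (CHR), which is bound by MuvB complexes, often near CCAAT boxes bound by NF-Y.

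The promoter windows of 9 genes that the results turn on are shown because they carry this shared element. RefSeq (GRCm38.p6) gave promoters of 250 bases before to 50 bases after the start for 35 of the 42 genes, and each window is written 5′ to 3′ on the strand of the gene with the element in capitals. The windows lie at chr7:135716460-135716489 (Mki67, minus strand), chr11:99024195-99024224 (Top2a, minus), chr10:69352910-69352939 (Cdk1, minus), chr9:70421533-70421562 (Ccnb2, minus), chr7:122159453-122159482 (Plk1, plus), chr2:164769888-164769917 (Ube2c, plus), chr5:30666890-30666919 (Cenpa, plus), chr1:189688067-189688096 (Cenpf, minus) and chr19:37376351-37376380 (Kif11, plus).
Mki67: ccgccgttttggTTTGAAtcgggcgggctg
Top2a: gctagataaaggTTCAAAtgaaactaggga
Cdk1: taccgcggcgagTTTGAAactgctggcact
Ccnb2: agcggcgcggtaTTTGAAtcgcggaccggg
Plk1: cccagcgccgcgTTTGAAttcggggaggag
Ube2c: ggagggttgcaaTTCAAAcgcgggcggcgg
Cenpa: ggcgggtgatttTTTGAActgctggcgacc
Cenpf: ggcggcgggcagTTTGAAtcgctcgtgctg
Kif11: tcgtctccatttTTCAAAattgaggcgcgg

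The search was for TTTGAA or TTCGAA on either strand, so TTCAAA is the same element read on the other strand. It was present in 27 of the 35 genes with a promoter, while 19.2% of 32851 promoters of the same length held it. In the last 100 bases of the promoter it was present in 24 of 35 genes, beside 5.31% of all promoters. CCAAT on either strand was present in 27 of 35 genes, beside 37.4% of all promoters, and both elements in 23 of 35, beside 7.52%. TTTGAA or TTCGAA had no match in the promoters of Cks2, Birc5, Ccnb1, Cenpe, Gtse1, Nuf2, Nusap1 and Tacc3. Cdca2, Tpx2, Smc4, Dlgap5, Kif20a, Aurkb and Ccna2 had no entry. A match describes letters in a window and was not tested as a binding site.

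Libraries held 9348094 to 72440894 unique molecular identifier (UMI) counts, each UMI standing for 1 captured RNA molecule. Filtering kept 84231 cells, 688 to 7631 per library, with median depths of 3553 to 14285 UMIs per cell. Cells were clustered without the cell cycle genes and clusters were named by markers, which gave 39451 B-like, 32714 T-like, 3849 plasma-like and 885 myeloid precursor-like cells. All 8 B cell markers were detected in B-like cells of every library. Of 16 B-like clusters, 14 drew over 50% of their cells from 1 library, as did 3 of 8 T-like and all 5 plasma-like clusters. Eµ-PRMT5 spleen 4 stood apart: its B-like cells had a median of 18159 UMIs against 4231 to 7717 in the other 19 libraries, and the summed level of their 8 B cell markers was 2316 CPM (UMI counts scaled to an equal total per class and library) against 4561 to 9495. Libraries shared 4556 pairs of cells with 1 barcode, near the 4536.9 that random draws of barcodes give. The comparisons with Eµ-PRMT5 spleens are therefore also given without Eµ-PRMT5 spleen 4, except in plasma-like cells, of which it held 3.

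The summed level of the 42 genes, in CPM of all UMIs of a class in a library, was highest in myeloid precursor-like cells among the 4 classes compared. Myeloid precursor-like cells, the granulocyte and monocyte progenitors that divide in spleens with extramedullary haematopoiesis, had 2245 to 4439 CPM with a median of 3323 over 9 spleens. B-like cells had a median of 747.9 CPM over 20 libraries, T-like cells 748.2 CPM over 20 and plasma-like cells 583.5 CPM over 13. The lowest myeloid precursor-like spleen stood above the medians of B-like, T-like and plasma-like cells, and the B-like and T-like medians were nearly equal. Erythroid-like cells, which entered no comparison, had a higher median of 3790 CPM in 3 libraries. The classes were compared as descriptions without a test.

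**Figure D1:**
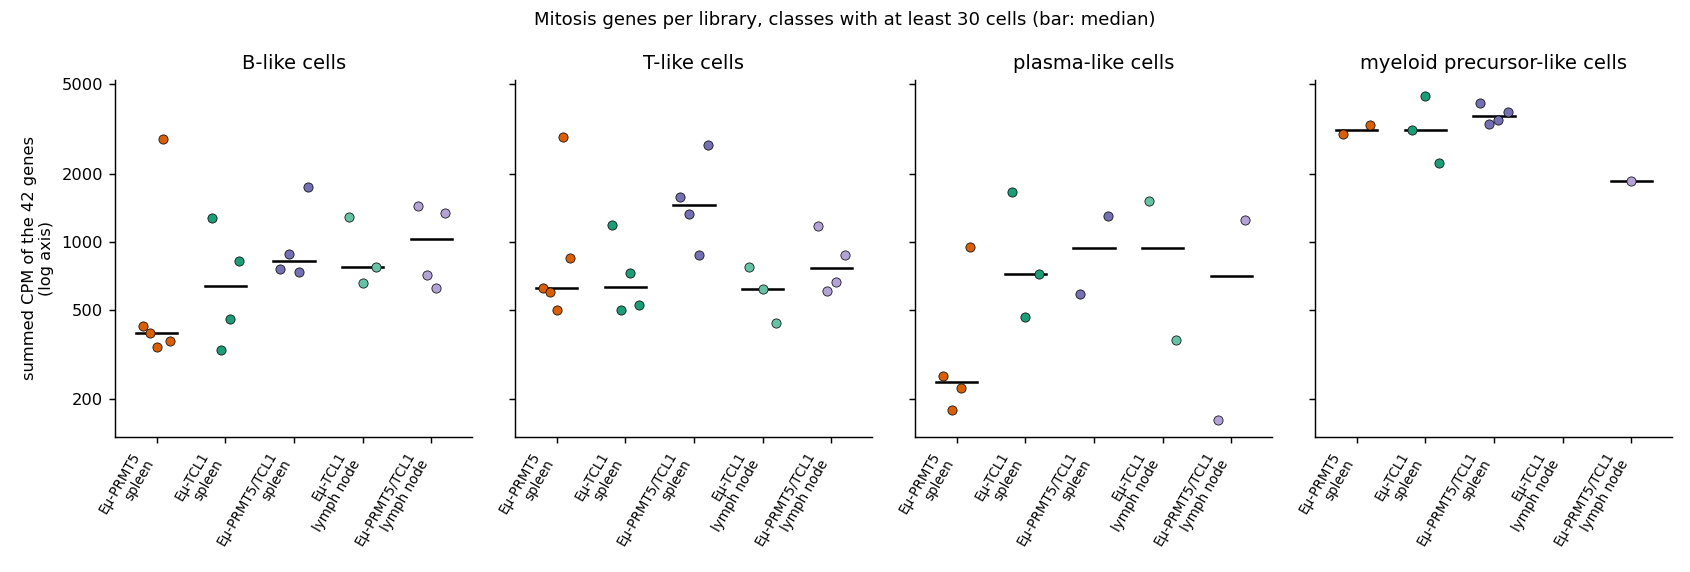
Summed CPM of the 42 mitosis genes (vertical log axis) in each library with at least 30 cells of a class, by group, with a bar at the group median. B-like cells of Eµ-PRMT5 spleen 4 stand at 2868 CPM, above the other 4 Eµ-PRMT5 spleens at 342 to 423, and myeloid precursor-like cells of spleens lie at 2245 to 4439, with 1 lymph node at 1868.

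In B-like cells of the 5 Eµ-PRMT5 spleens the 42 genes summed to 423, 392, 342, 2868 and 362 CPM, a mean of 877 ± 1113 (SD). In the 4 Eµ-TCL1 spleens they summed to 1274, 332, 455 and 822 CPM (721 ± 423), and in the 4 Eµ-PRMT5/TCL1 spleens to 759, 882, 737 and 1751 CPM (1032 ± 484). The SD exceeded the mean in Eµ-PRMT5 spleens, where 4 mice lay within 342 to 423 and the other stood alone, and the 3 groups overlapped. The number of B-like cells behind these values was 285 to 2570, 1238 to 5127 and 640 to 4737, respectively.

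The share of B-like cells with at least 3 UMIs of the 42 genes was measured after each cell was thinned to 1000 UMIs, which keeps depth from setting the share and left out no B-like cell. It was 1.33%, 0.351%, 0.910%, 42.4% and 0.753% in the 5 Eµ-PRMT5 spleens. In spleens 1, 2, 3 and 5 these shares were 18, 1, 15 and 4 cells. The 4 Eµ-TCL1 spleens had 10.4%, 0.936%, 2.00% and 4.75%, and the 4 Eµ-PRMT5/TCL1 spleens had 3.38%, 6.72%, 4.02% and 15.6%. Every Eµ-PRMT5/TCL1 spleen thus had a share above 4 of the 5 Eµ-PRMT5 spleens. Without thinning the group means were 45.7%, 45.3% and 49.8%, where the thinned means were 9.14%, 4.53% and 7.42%. The share that free RNA alone would give was not measured.

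Mki67 encodes Ki-67, a chromosome surface protein found in cycling cells and used in pathology as the proliferation index. Its level in B-like cells was 3.28, 3.77, 3.26, 107 and 15 CPM in Eµ-PRMT5 spleens. It was 75.8, 6.19, 11.6 and 27.9 CPM in Eµ-TCL1 spleens and 38.6, 32.5, 22.2 and 91.3 CPM in Eµ-PRMT5/TCL1 spleens. The Eµ-PRMT5/TCL1 spleens were the only spleen group in which every library exceeded 20 CPM, and the Eµ-TCL1 spleens spread over more than 10-fold. Mki67 UMIs were present in 0.295% to 9.14% of thinned B-like cells of Eµ-PRMT5 spleens, 0.273% to 3.55% of those of Eµ-TCL1 spleens and 0.937% to 4.96% of those of Eµ-PRMT5/TCL1 spleens.

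Top2a, the topoisomerase that untangles sister DNA before it is segregated, was highest in the same library of each spleen group as Mki67. It stood at 9.57, 10.2, 7.45, 167 and 11.3 CPM in Eµ-PRMT5 spleens. It stood at 122, 12.9, 16.8 and 43.4 CPM in Eµ-TCL1 spleens and at 53.9, 64.0, 42.3 and 154 CPM in Eµ-PRMT5/TCL1 spleens. In each of the 3 spleen groups a single library stood above the rest.

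Ccna2 (cyclin A2), Ccnb1 (cyclin B1) and Cdk1 form the kinase complexes that start mitosis. Ccna2 measured 1.23, 3.77, 1.63, 166 and 3.29 CPM in Eµ-PRMT5 spleens, against 17.8, 17.2, 16.6 and 67.3 CPM in Eµ-PRMT5/TCL1 spleens and 42.2, 3.56, 5.14 and 18.7 CPM in Eµ-TCL1 spleens. Cdk1 measured 2.60, 3.01, 1.28, 121 and 3.29 CPM in Eµ-PRMT5 spleens, 14, 19.6, 12.4 and 48.3 CPM in Eµ-PRMT5/TCL1 spleens and 27.6, 1.75, 5.03 and 14.7 CPM in Eµ-TCL1 spleens. Both genes stood above 12 CPM in all 4 Eµ-PRMT5/TCL1 spleens and below 4 CPM in 4 of 5 Eµ-PRMT5 spleens. Ccnb1 stood at 0.814 to 3.52 CPM in 4 Eµ-PRMT5 spleens and 52.6 in spleen 4, 1.48 to 11 in Eµ-TCL1 spleens and 7.89 to 29.4 in Eµ-PRMT5/TCL1 spleens.

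Of the mitotic kinases, Plk1 directs spindle assembly and exit, Aurkb is the kinase of the chromosomal passenger complex, and Bub1b (BubR1) is a checkpoint protein. Plk1 stood at 0.820, 0.377, 1.4, 23.8 and 0.705 CPM in Eµ-PRMT5 spleens, 11.4, 1.24, 2.73 and 9.43 CPM in Eµ-TCL1 spleens and 6.56, 5.32, 4.46 and 13.9 CPM in Eµ-PRMT5/TCL1 spleens. Aurkb stood at 2.79 to 5.40 CPM in 4 Eµ-PRMT5 spleens and at 109 in spleen 4, at 4.92 to 38.6 in Eµ-TCL1 spleens and at 16.9 to 58.2 in Eµ-PRMT5/TCL1 spleens. Bub1b reached 0.753 to 1.98 CPM in 4 Eµ-PRMT5 spleens and 21.1 in spleen 4, 2.44 to 7.23 in Eµ-TCL1 spleens and 5.06 to 14.2 in Eµ-PRMT5/TCL1 spleens. For Plk1, Aurkb and Bub1b the ranges of the 4 Eµ-PRMT5 spleens and of the Eµ-PRMT5/TCL1 spleens did not meet. The 4 Eµ-PRMT5 spleens lay below all Eµ-PRMT5/TCL1 spleens for 36 of the 42 genes, beside 4.7% of all genes. Spleen 4 was left out of this count. Mki67 had 24, 10, 28 and 64 UMIs in Eµ-PRMT5 spleens 1, 2, 3 and 5, so low levels there rest on few UMIs. Birc5 (survivin), which anchors the passenger complex, measured 3.69, 2.64, 1.98, 219 and 5.17 CPM in Eµ-PRMT5 spleens, 64.8, 5.10, 7.11 and 29.1 CPM in Eµ-TCL1 spleens and 28.5, 35.0, 25.3 and 65.9 CPM in Eµ-PRMT5/TCL1 spleens.

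Cdc20 activates the anaphase-promoting complex and Ube2c is its ubiquitin-conjugating enzyme. Ube2c measured 1.91, 4.14, 1.28, 240 and 7.28 CPM in Eµ-PRMT5 spleens, 59.4, 9.6, 12.3 and 46.7 CPM in Eµ-TCL1 spleens and 49.8, 40.6, 24.7 and 97.4 CPM in Eµ-PRMT5/TCL1 spleens. Cdc20 measured 5.33, 4.90, 5.24, 92.1 and 4.93 CPM in Eµ-PRMT5 spleens, 16.3, 2.69, 4.81 and 11.3 CPM in Eµ-TCL1 spleens and 11.1, 12.9, 10.4 and 30.5 CPM in Eµ-PRMT5/TCL1 spleens. Cdc20 thus varied less than Ube2c among the libraries other than Eµ-PRMT5 spleen 4. Reads of Ube2c, Cdc20 and Ccna2 come from genes that overlap Tnnc2, Elovl1 and Exosc9 on the opposite strand, whose reads stay apart only where counting used the strand.

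Among kinetochore genes, Cenpa (the histone H3 variant that marks centromeres) varied less between libraries than Cenpf and Ndc80 (outer kinetochore proteins). Cenpa stood at 86.3, 81.4, 71.0, 204 and 50.7 CPM in Eµ-PRMT5 spleens, 90.6, 97.6, 120 and 142 CPM in Eµ-TCL1 spleens and 59.9, 117, 149 and 142 CPM in Eµ-PRMT5/TCL1 spleens. Cenpf ranged from 0.465 to 6.34 CPM in 4 Eµ-PRMT5 spleens with 50.2 in spleen 4, from 2.20 to 26.6 in Eµ-TCL1 spleens and from 8.31 to 32.7 in Eµ-PRMT5/TCL1 spleens. The highest library exceeded the lowest by 4.01-fold for Cenpa over all 20 libraries, and by 2.94-fold for both Smc4, a condensin subunit, and Cks2, a small subunit that binds Cdk1. These 3 genes had the narrowest ranges of the 42. Ndc80 stood at 3.76 to 9.04 CPM in 4 Eµ-PRMT5 spleens and 27.1 in spleen 4, 2.96 to 19.2 in Eµ-TCL1 spleens and 12.7 to 23.7 in Eµ-PRMT5/TCL1 spleens. Kif11, the motor that pushes spindle poles apart, ranged from 0.931 to 4.93 CPM in 4 Eµ-PRMT5 spleens with 86.4 in spleen 4, 1.96 to 25 in Eµ-TCL1 spleens and 10.2 to 47.8 in Eµ-PRMT5/TCL1 spleens. Tpx2, which nucleates spindle microtubules, ranged from 0.814 to 4.93 CPM with 44.6 in spleen 4, 1.60 to 16.8 and 6.59 to 22, in the same order of groups.

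**Figure D2:**
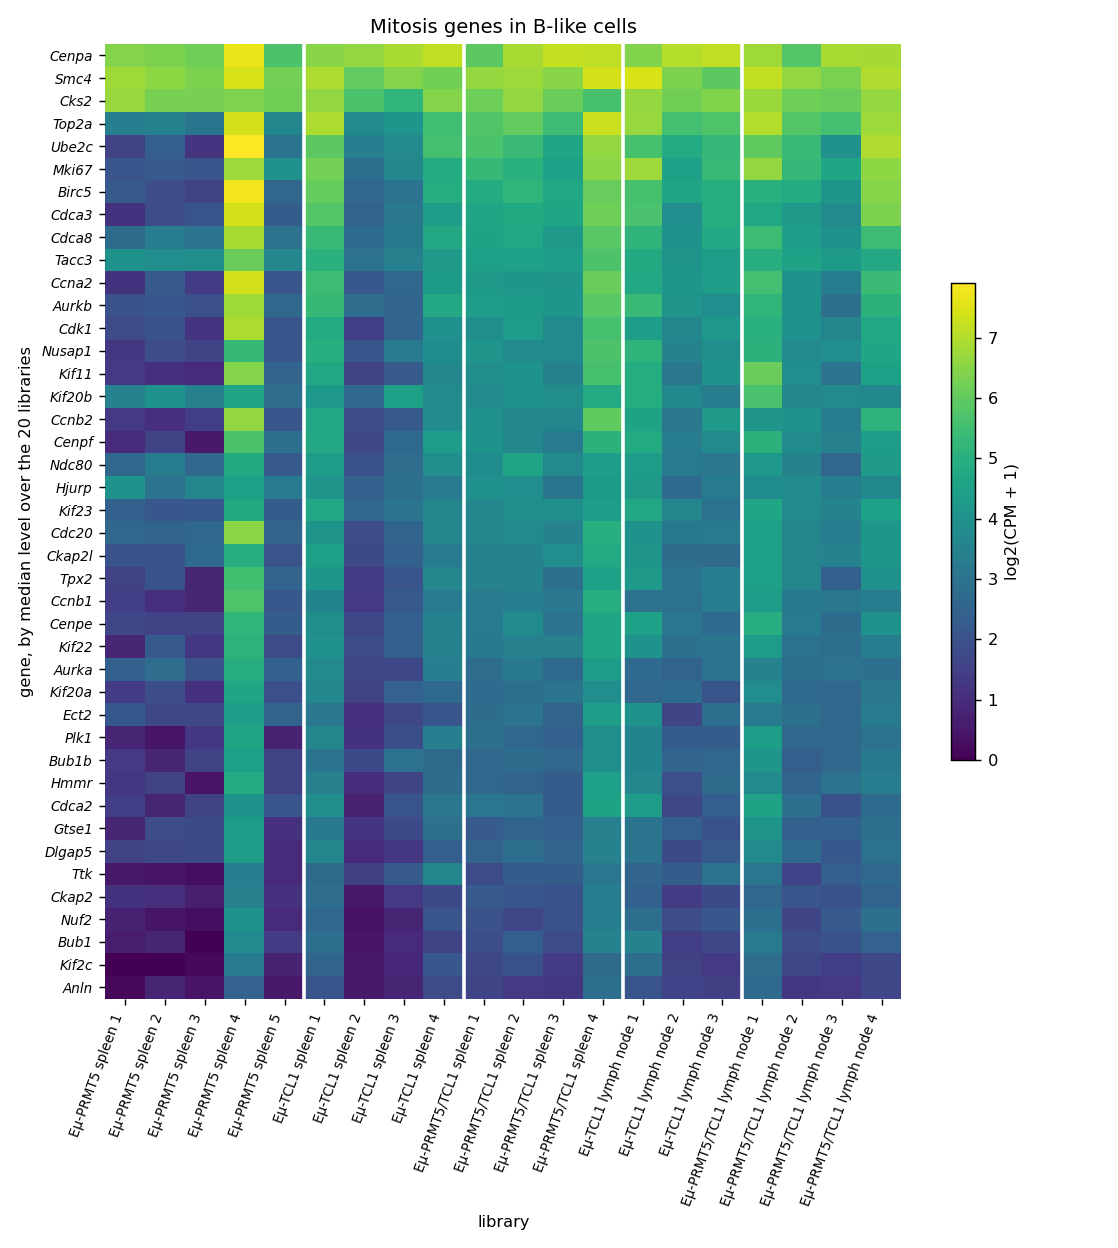
Level of each of the 42 genes in B-like cells, as log2(CPM + 1) in colour, with genes in rows by their median and the 20 libraries in columns by group. Cenpa, Smc4 and Cks2 are bright in every column, whereas most other genes are dark in 4 Eµ-PRMT5 spleens and brightest in Eµ-PRMT5 spleen 4 (35 of 42 genes highest there).

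Eµ-PRMT5 spleen 4 held the highest B-like level of 35 of the 42 genes among 20 libraries, of 36 among 13 spleens, and stood above the other 4 Eµ-PRMT5 spleens for 41. The ratio to the median of those 4 spleens was 79.2 for Ube2c, 69.4 for Birc5, 67.3 for Ccna2, 43.3 for Cdk1, 30.3 for Mki67, 16.9 for Top2a, 2.67 for Cenpa and 1.08 for Cks2. The median ratio was 16.8 and 28 genes exceeded 10. Mki67 had 24, 10, 28 and 64 UMIs in spleens 1, 2, 3 and 5, beside 5148 in spleen 4, so many of these ratios rest on few UMIs. The balance of some genes differed from other libraries as well. Spleen 4 had 2.25 Ube2c, 2.06 Birc5 and 1.55 Ccna2 UMIs for each Mki67 UMI. The other 19 libraries had at most 1.67, 1.14 and 1. For Top2a (1.56) and Cdc20 (0.8625) spleen 4 lay within the range of the others, 0.75 to 2.92 and 0.147 to 1.625. The 2570 B-like cells of this spleen were nearly all of 1 cluster, which took 99.8% of its 2571 cells from it and was led by Mzb1, Shisa8 and Mef2b. Of its 1089 cells with at least 3 UMIs of the 42 genes, 33.4% had a Cd79a UMI after thinning and none a Cd3e UMI, whereas 50.7% of its cells with none of these genes had Cd79a. Depth moved with the result: the median was 21210 UMIs in the former cells and 12280 in the latter, and the part of depth or of the low B cell marker level in the whole difference was not tested.

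The first comparison asks whether B-like cells of mice with PRMT5 differ from those of mice with TCL1. With edgeR's quasi-likelihood test on counts summed per library and Benjamini-Hochberg adjustment, 0 of the 42 genes passed an adjusted p of 0.05, where 1 of 11930 genes tested (0.00838%) did. At an unadjusted p below 0.05 the counts were 0 of 42 and 18.5% of all genes. DESeq2 also called 0 of the 42, beside 6.39% of all genes. The median log2 change of the 42 genes (Eµ-PRMT5 minus Eµ-TCL1) was 0.48, with 34 of 42 above 0, beside 0.03 over all genes. Values ran from -0.92 (SE 0.98, adjusted p = 0.644, edgeR) for Ttk, the checkpoint kinase Mps1, to 1.62 (SE 1.02, adjusted p = 0.415) for Cdc20. The SD of the median between libraries was 1.35. No gene had groups that did not overlap, where 4.97% of all genes did.

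That result rested on a single spleen. Without Eµ-PRMT5 spleen 4, 11 of the 42 genes were lower in the 4 other Eµ-PRMT5 spleens than in Eµ-TCL1 spleens (edgeR, adjusted p below 0.05), where 1.89% of 11668 genes were called lower, and none was higher, where 3.03% were. The median of the 42 became -1.96. They were the cyclin Ccna2 (-3.10, SE 0.81, adjusted p = 0.0487), Top2a (-2.54, SE 0.65, adjusted p = 0.0467), the kinases Plk1 (-3.00, SE 0.69, adjusted p = 0.04), Aurkb (-2.59, SE 0.66, adjusted p = 0.0470), Bub1b (-1.99, SE 0.45, adjusted p = 0.04) and Ttk (-3.75, SE 0.68, adjusted p = 0.0264), and Birc5 (-3.16, SE 0.75, adjusted p = 0.0416), by edgeR. Ube2c (-3.38), Cdca3 (-3.20), a trigger of mitotic entry, Nusap1 (-2.78), a spindle protein, and Kif23 (-1.85), a motor of cytokinesis, were the others. Mki67 was at -2.43 with an adjusted p of 0.0846 by edgeR. All 4 of these Eµ-PRMT5 spleens stood below all 4 Eµ-TCL1 spleens for 8 of 42 genes, beside 4.10% of all genes. The spleen was left out after its values had been seen, so these p-values describe the remaining 4 mice and not the group. B-like cells of these groups also lay in different clusters. A cluster led by Cd83, Xist and Fcmr drew 46.3% of its 3532 cells from Eµ-PRMT5 spleen 3. Of its cells, 1.08% had at least 3 UMIs of the 42 genes. The largest B-like clusters drawn over 50% from Eµ-TCL1 spleens 1, 2, 3 and 4 had 7.86%, 1.32%, 1.32% and 5.60% such cells. They drew 64.27%, 84.07%, 99.81% and 91.78% of their cells from these spleens, so cluster and mouse cannot be told apart. The part of this make-up in the difference was not tested.

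**Figure D3:**
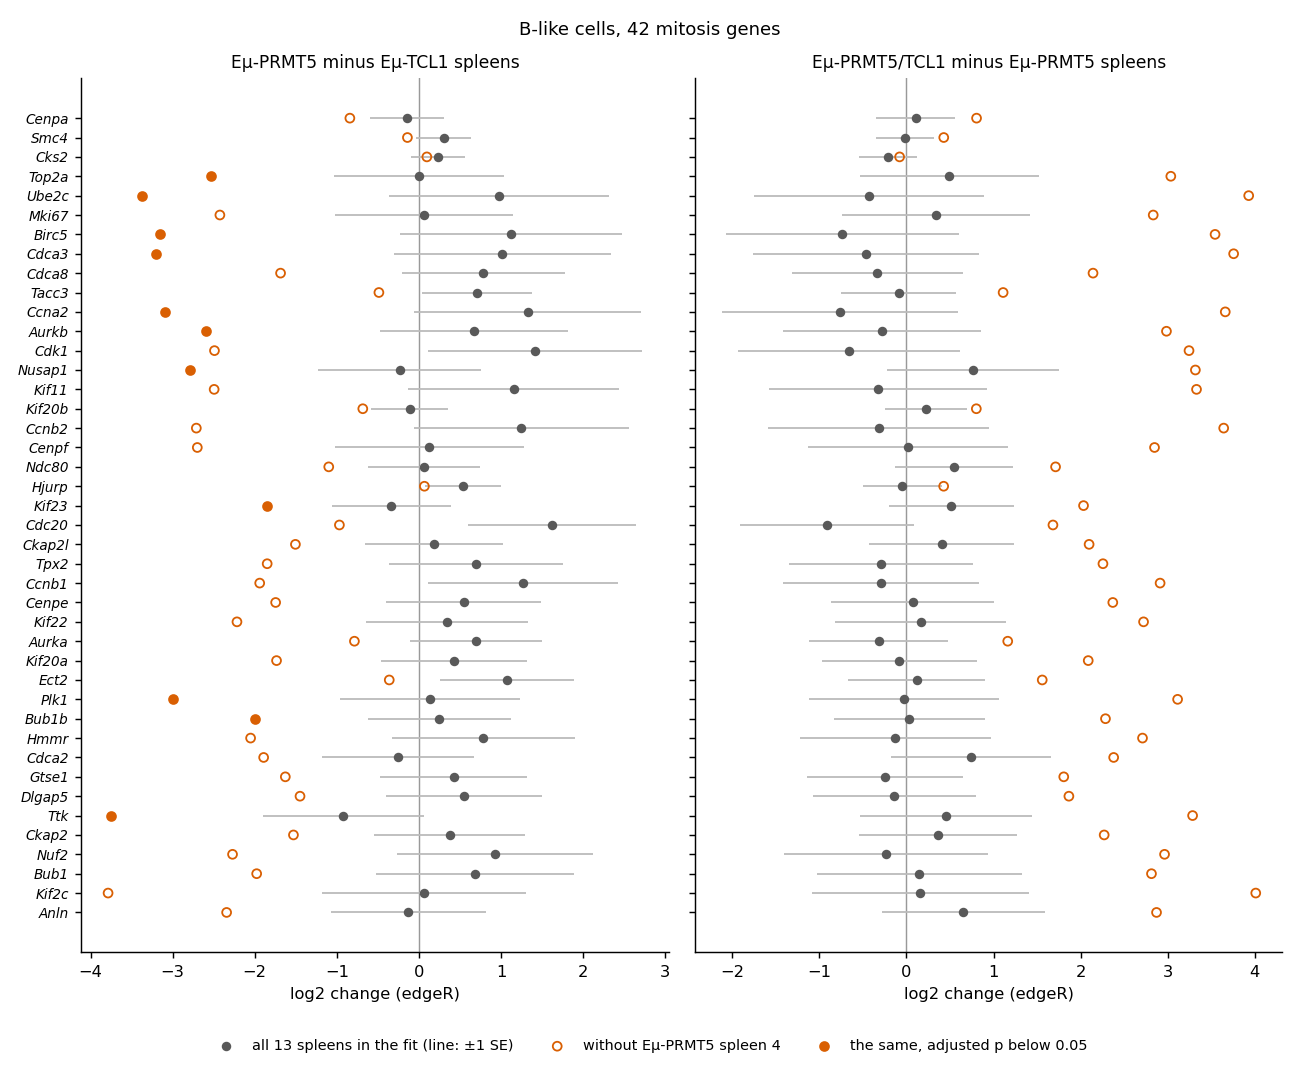
Log2 changes of the 42 genes in B-like cells from edgeR (horizontal axis), for Eµ-PRMT5 minus Eµ-TCL1 spleens and Eµ-PRMT5/TCL1 minus Eµ-PRMT5 spleens. Grey points with lines (±1 SE) use all 13 spleens and orange circles leave out Eµ-PRMT5 spleen 4, filled where the adjusted p is below 0.05: 11 genes on the left, none on the right.

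Whether PRMT5 added to TCL1 changes these genes was asked by setting Eµ-PRMT5/TCL1 against Eµ-TCL1 spleens, and 0 of the 42 passed (edgeR; 0% of 11930 genes). None passed an unadjusted p of 0.05 either, beside 4.69% of all genes, and DESeq2 called 0 of the 42, beside 0.176%. The median log2 change was 0.49, with 40 of 42 above 0. The SD of this median between libraries was 0.87. The genes were partly detected in the same cells, so counts of genes above 0 or without overlap are not independent results. Mki67 was at 0.40 (SE 1.15), Top2a at 0.49 (SE 1.09), Ccnb1 at 0.97 (SE 1.2), Cdk1 at 0.75 (SE 1.34), Kif11 at 0.83 (SE 1.33) and Ndc80 at 0.61 (SE 0.72), each within its error. Plk1 (0.11), Cenpf (0.15) and Bub1b (0.28) were nearer 0, and Cenpa was at -0.04 (SE 0.48). The extremes were Ttk at -0.47 and Ect2, an activator of the cleavage furrow, at 1.19 (SE 0.84). No gene's groups were free of overlap, beside 3.04% of all genes. With standard errors above 1 on the log2 scale, a 2-fold change of such genes was not detectable with 4 mice a group.

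Eµ-PRMT5/TCL1 spleens differed from Eµ-PRMT5 spleens by a median log2 change of -0.04 over the 42 genes, with 19 above 0 and 0 called (edgeR, adjusted p below 0.05; 0% of 11930 genes). At an unadjusted p below 0.05 the counts were 0 of 42 and 9.83% of all genes, and DESeq2 called 0 of 42 and 1.38%. The range ran from -0.91 (SE 1.00, adjusted p = 0.777, edgeR) for Cdc20 to 0.76 (SE 0.99, adjusted p = 0.820) for Nusap1, and no gene's groups were free of overlap, beside 2.04% of all genes. Without Eµ-PRMT5 spleen 4 the median was 2.54, and 37 of 42 genes had an unadjusted p below 0.05, beside 19.8% of all genes. The smallest adjusted p was then 0.0567 (Ube2c, edgeR), so 0 of the 42 passed, where 0.171% of 11668 genes did. Each of the 4 Eµ-PRMT5 spleens stood below each of the 4 Eµ-PRMT5/TCL1 spleens for 36 of 42 genes, beside 4.70% of all genes. The share of cells with at least 3 UMIs of the 42 genes differed between B-like clusters. It was 4.05%, 4.13% and 15.7% in clusters that drew 78.95%, 78.22% and 99.72% of their cells from Eµ-PRMT5/TCL1 spleens 1, 3 and 4. Most of each of these clusters is 1 mouse, so cluster and mouse cannot be told apart. The share was 1.08% in the cluster led by Cd83, Xist and Fcmr, and the part of this make-up was not tested. The 3 spleen comparisons share groups, so they are not independent of each other.

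In lymph nodes the B-like cells of 3 Eµ-TCL1 mice summed to 1286, 656 and 771 CPM and those of 4 Eµ-PRMT5/TCL1 mice to 1444, 715, 624 and 1336 CPM. Mki67 stood at 107, 22.2 and 40.6 CPM in the former and at 97.2, 37.8, 24.4 and 94.1 CPM in the latter. Top2a stood at 102, 45.7 and 52.3 CPM and at 126, 54.3, 45.9 and 106 CPM. Both groups held libraries near 100 CPM and libraries below 50 CPM of Mki67, so they overlapped throughout. Thinned cells with at least 3 UMIs of the 42 genes were 6.37%, 3.20% and 5.78% of Eµ-TCL1 and 11.2%, 3.70%, 3.68% and 12.8% of Eµ-PRMT5/TCL1 lymph nodes. The median log2 change was 0.35, with 40 of 42 above 0 and 0 called by edgeR (0% of 10951 genes) or DESeq2 (0.438%). The SD of this median between libraries was 0.63. None had an unadjusted p below 0.05, beside 6.35% of all genes, and none had groups without overlap, beside 5.40%. Cenpa was at -0.23 (SE 0.36, adjusted p = 0.941, edgeR) and Ckap2l, a spindle protein, at 0.88 (SE 0.41, adjusted p = 0.815), the extremes of the list. The median was -0.69 when cell cycle genes entered the clustering. In that clustering a cluster of 1230 cells, 95.9% from Eµ-PRMT5/TCL1 lymph node 4, got no class name and so entered no class. Mki67 was detected in 61.1% of them. Another unnamed cluster of 710 cells, 80.6% from Eµ-TCL1 lymph node 2, had Mki67 in 7.18%. The part of these cells in the change of the median was not tested.

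Both tissues of the same mouse were compared in 7 mice. The summed B-like level from spleen to lymph node went from 1274 to 1286, from 332 to 656 and from 822 to 771 CPM in Eµ-TCL1 mice, and from 1751 to 1444, 759 to 715, 737 to 624 and 882 to 1336 CPM in Eµ-PRMT5/TCL1 mice. It was higher in the lymph node of 3 of 7 mice. With the mouse as a block, 0 of 42 genes passed (edgeR, adjusted p below 0.05; 0.00885% of 11302 genes; DESeq2 0 of 42, beside 2.81%), and the median log2 change was 0.18. The SD of this median between libraries was 0.61, and leaving out 1 mouse at a time gave medians of -0.041 to 0.27. Mki67 was at 0.67 (SE 0.23, adjusted p = 0.302, edgeR). It was the only gene of the 42 with an unadjusted p below 0.05, beside 11.8% of all genes. Ndc80 was lowest at -0.19 (SE 0.26). Tested within a genotype, the median was 0.33 in Eµ-TCL1 mice (2 of 42 at an unadjusted p below 0.05, beside 8.26%; 0 called, beside 0% of 11640) and 0.06 in Eµ-PRMT5/TCL1 mice (0 of 42, beside 5.46%; 0 called, beside 0% of 11337). The interaction of tissue and genotype called 0 of 42 (edgeR; 0% of 11302 genes), with 1 at an unadjusted p below 0.05, beside 1.71%.

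**Figure D4:**
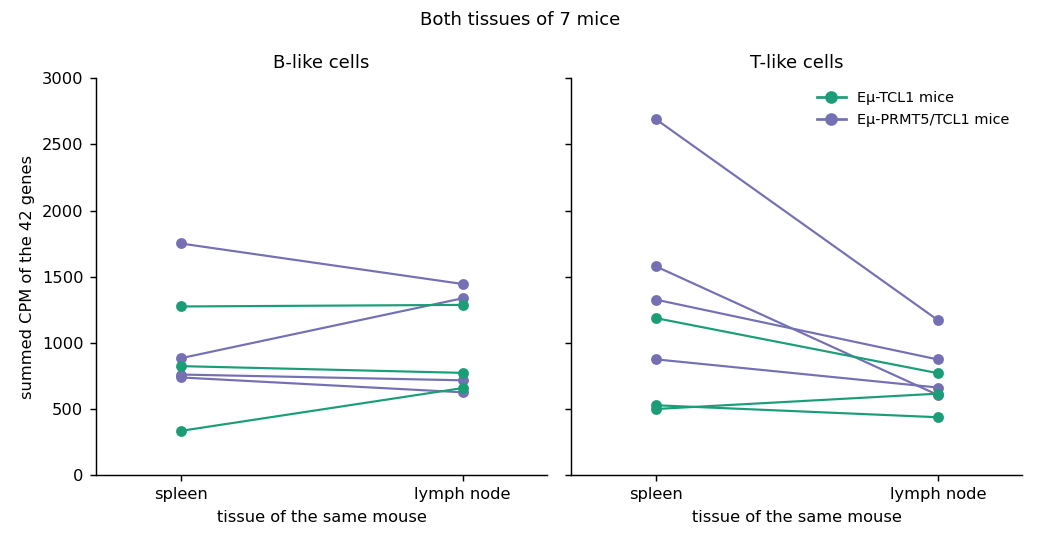
Summed CPM of the 42 genes in spleen and lymph node of the same 7 mice, in B-like and T-like cells, with a line for each mouse. Lines of B-like cells go up in 3 and down in 4 mice, and those of T-like cells go down in 6 of 7.

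The transgenes were built for expression in B cells, so T-like cells are not their intended target. In T-like cells of spleens the 42 genes summed to 624, 597, 499, 2917 and 846 CPM in Eµ-PRMT5 mice, 1186, 498, 727 and 526 CPM in Eµ-TCL1 mice and 1578, 1326, 874 and 2692 CPM in Eµ-PRMT5/TCL1 mice. The Eµ-PRMT5/TCL1 spleens were all above 3 of the 4 Eµ-TCL1 spleens and above 4 of the 5 Eµ-PRMT5 spleens. The value of 2917 came from 47 cells, whose 8 B cell markers summed to 748.3 CPM, the most of any T-like library (33.54 to 538.9 in the others). That of 1578 came from 146 cells. Mki67 stood at 12.2, 6.46, 2.74, 74.6 and 29.3 CPM in Eµ-PRMT5 spleens, against 46.4, 4.28, 7.62 and 1.89 CPM with TCL1 alone and 56.5, 54.7, 29.3 and 117 CPM with both transgenes. Thinned cells with at least 3 UMIs of the 42 genes were 5.92%, 1.67%, 3.68% and 1.66% of T-like cells in Eµ-TCL1 spleens. They were 11.6%, 8.41%, 5.21% and 12.7% with both transgenes.

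For Eµ-PRMT5/TCL1 minus Eµ-TCL1 spleens the T-like median log2 change was 1.61, with 41 of 42 genes above 0, 6 at an unadjusted p below 0.05 (4.99% of all genes) and 0 called by edgeR (0% of 10826 genes) or DESeq2 (0%). Ccnb2, a B-type cyclin, was highest at 2.40 (SE 1.4, adjusted p = 0.872, edgeR), Mki67 was at 1.89 (SE 0.99, adjusted p = 0.872) and Smc4 was lowest at -0.14. Only Gtse1, a microtubule-binding protein of G2 and S phase, had groups that did not overlap, at 8.35 to 12.4 against 3.74 to 8.2 CPM, beside 1.77% of all genes that were higher without overlap. The SD of the median between libraries was 1.03, and leaving out Eµ-TCL1 spleen 1 took the median to 2.81.

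The make-up of the T-like class moved with this difference. A cluster of T-like cells led by Ccl5, Nkg7 and Gzmk, in which 13.7% of cells had at least 3 UMIs of the 42 genes, held 23.3%, 35.6%, 21.4% and 54% of T-like cells in Eµ-PRMT5/TCL1 spleens and 12.5%, 6.58%, 1.78% and 0.775% in Eµ-TCL1 spleens. In Eµ-PRMT5 spleens it held 11%, 12.7%, 7.25%, 97.9% (46 of 47 cells, spleen 4) and 0.389%. In the largest T-like cluster, led by Ccl5, Ms4a4b and Ctla2a, 2.94% to 3.30% of cells in 3 Eµ-PRMT5/TCL1 spleens and 1.48% to 3.69% in the 4 Eµ-TCL1 spleens had at least 3 such UMIs, and these ranges overlapped. In the cluster led by Ccl5, Nkg7 and Gzmk this share was 8.82%, 16.8%, 11.5% and 21% in Eµ-PRMT5/TCL1 spleens 1 to 4. It was 5.17% and 3.39% in Eµ-TCL1 spleens 1 and 2, and the others had under 30 such cells. In a cluster led by Ccl5, Ly6c2 and Satb1 it was 9.62%, 3.33% and 2.27% in Eµ-PRMT5/TCL1 spleens 2 to 4. Eµ-TCL1 spleens 1 and 2 had 1.72% and 0.873% there. The part of the make-up in the class difference was not tested.

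Eµ-PRMT5/TCL1 minus Eµ-PRMT5 spleens gave a T-like median of 1.19, with 39 of 42 above 0, 8 at an unadjusted p below 0.05 (4.22% of all genes) and 0 called by edgeR (0% of 10826) or DESeq2 (0.0739%), between Gtse1 at -0.07 and Ckap2l at 2.26. No gene's groups were free of overlap, beside 1.27%. Without Eµ-PRMT5 spleen 4, which gave 47 cells, the median was 2.09 and 35 of 41 genes had an unadjusted p below 0.05, beside 11.2% of all genes, with 0 called (edgeR; 0% of 10781). The other 4 Eµ-PRMT5 spleens then stood below all Eµ-PRMT5/TCL1 spleens for 25 of 41 genes, beside 5.28% of all genes. Eµ-PRMT5 minus Eµ-TCL1 spleens gave a median of 0.37 (29 of 42 above 0), from -0.67 for Anln (anillin) to 1.66 for Ccnb2, with 0 called by edgeR (0% of 10826) or DESeq2 (0.286%), 0 of 42 at an unadjusted p below 0.05 (6.88% of all genes) and 0 without overlap (2.14%). That median was 1.48 without Eµ-TCL1 spleen 1. It was -0.51 without Eµ-PRMT5 spleen 4, with 0 of 41 genes at an unadjusted p below 0.05 (10.4% of all genes), 0 called (0% of 10781) and 0 below all Eµ-TCL1 spleens (2.39%).

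In lymph nodes T-like cells summed to 769, 614 and 436 CPM in Eµ-TCL1 and 1171, 604, 661 and 873 CPM in Eµ-PRMT5/TCL1 mice. The first Eµ-PRMT5/TCL1 value, here and for the genes below, came from 67 cells, the others from 780 to 4424. Cenpa stood at 40.8, 26.7 and 24.8 CPM in Eµ-TCL1 mice and at 90.3, 81.1, 59.5 and 65.3 CPM in Eµ-PRMT5/TCL1 mice. The groups did not overlap. Its log2 change was 1.35 (SE 0.209), with an adjusted p of 0.164 by edgeR, which does not pass, and of 7.926e-05 by DESeq2, which called it alone of the list, beside 0.936% of all genes. Cdca3 (8.51, 2.86 and 2.12 against 18.1, 9.07, 8.87 and 17.8 CPM) and Aurkb (4.75, 1.91 and 1.21 against 25.8, 6.94, 5.30 and 7.56 CPM) were the other genes without overlap, 3 of 39 in all, beside 2.68% of all genes. Of 39 genes tested, 0 passed by edgeR (0% of 10465), 10 had an unadjusted p below 0.05 (13.4% of all genes) and the median was 0.58. The extremes were Kif22 at -0.51 and Aurkb at 1.63 (SE 0.50, adjusted p = 0.253, edgeR).

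Between tissues of the same mouse the T-like level went from 1186 to 769, from 498 to 614 and from 526 to 436 CPM in Eµ-TCL1 mice, and from 2692 to 1171, 1578 to 604, 874 to 661 and 1326 to 873 CPM in Eµ-PRMT5/TCL1 mice. It was lower in the lymph node of 6 of 7 mice. The 1171 came from 67 cells and the 1578 from 146. Of 40 genes tested, 39 were below 0 with a median log2 change of -0.70, and 19 had an unadjusted p below 0.05, beside 12.6% of all genes. The SD of the median between libraries was 0.80. None passed by edgeR, where 0.00985% of 10149 genes did. Cdk1 was at -0.98 (SE 0.22, adjusted p = 0.204 by edgeR and 0.0272 by DESeq2) and the kinesin Kif22 at -1.01 (adjusted p = 0.0474 by DESeq2, whose log2 change was -1.03). DESeq2 called these 2 of the 40 and 1.79% of all genes. The lowest was Nuf2, a partner of Ndc80, at -1.53 (SE 0.45, adjusted p = 0.249, edgeR), and Cks2 was at 0.02. The median was -0.12 in Eµ-TCL1 mice (2 of 37 tested at an unadjusted p below 0.05, beside 3.32%; 0 called, beside 0% of 10166) and -0.90 in Eµ-PRMT5/TCL1 mice (24 of 40, beside 7.72%; 0 called, beside 0% of 10171). Their difference, tested as an interaction, called 0 genes (edgeR; 0% of 10149), with a median of -0.65 and 1 gene at an unadjusted p below 0.05, beside 1.16%.

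T-like cells also lay in different clusters in both tissues. The cluster led by Ccl5, Nkg7 and Gzmk went from 54% to 73.1%, from 23.3% to 6.58%, from 21.4% to 4.93% and from 35.6% to 11% of T-like cells from spleen to lymph node of the 4 Eµ-PRMT5/TCL1 mice. A cluster led by Ccl5, Ly6c2 and Satb1, in which 1.77% of cells had at least 3 UMIs of the 42 genes, went from 30.3% to 0%, from 14.4% to 57.2%, from 4.46% to 65.8% and from 5.54% to 71% in the same mice. The lymph node of the first mouse held 67 T-like cells. The last 3 of these mice had fewer cells of the former cluster and more of the latter in the lymph node. The part of this in the tissue difference was not tested.

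Ccl5, Nkg7 and Gzmk are genes of cytotoxic and effector T cells. Of the 8 T-like clusters, the larger one led by them had the highest share of cells with at least 3 UMIs of the 42 genes. It held 2868 cells, 8.77% of all T-like cells, and 394 of the 1354 T-like cells with at least 3 such UMIs (29.1%), so the other 7 clusters held most of them. The share of its cells with at least 3 such UMIs was 8.82%, 16.8%, 11.5% and 21% in Eµ-PRMT5/TCL1 spleens and 4.08%, 12.8%, 20.6% and 17.7% in their lymph nodes. In the 2 Eµ-TCL1 spleens with at least 30 such cells it was 5.17% and 3.39%, and in 2 Eµ-TCL1 lymph nodes 13.3% and 8.16%. It ranged from 1.67% to 3.47% in Eµ-PRMT5 spleens 1 to 3, beside 23.9% of 46 cells in spleen 4. From spleen to lymph node of the same Eµ-PRMT5/TCL1 mice it went from 21% to 4.08%, from 8.82% to 12.8%, from 11.5% to 20.6% and from 16.8% to 17.7%, higher in the lymph node of 3 of 4 mice, while the level of the whole class was lower there in all 4. The 4.08% was of 49 cells and the 8.82% of 34, so these 2 values rest on few cells. These shares are a description, since the clusters were drawn from the same cells.

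Plasma cells are antibody-secreting B lineage cells, of which the short-lived forms still divide. Each of the 5 plasma-like clusters carried 6 of 8 B cell markers beside 6 or 7 of 8 plasma cell markers. A B-like cluster of 2024 cells also carried 6 plasma cell markers, so the markers did not divide these classes sharply. In plasma-like cells the values were as follows. The 42 genes summed to 252, 179, 225 and 949.5 CPM in 4 Eµ-PRMT5 spleens (spleens 1, 2, 3 and 5), 1671, 461 and 719 CPM in Eµ-TCL1 spleens, and 584 and 1295 CPM in Eµ-PRMT5/TCL1 spleens. Lymph nodes had 1510 and 366 CPM with TCL1 alone and 161 and 1248 CPM with both transgenes. Libraries of 1 group differed by as much as groups did. For Eµ-PRMT5 minus Eµ-TCL1 spleens the median log2 change was -1.11, with all 38 genes tested below 0, 8 at an unadjusted p below 0.05 (11.4% of all genes) and 0 called (edgeR; 0% of 8426). Cenpa was at -1.39 (SE 0.43, adjusted p = 0.269) and Gtse1 lowest at -2.79 (adjusted p = 0.318), by edgeR. In Eµ-PRMT5 spleens Cenpa, Kif22, Gtse1 and Kif20b lay below all Eµ-TCL1 spleens without overlap, 4 genes beside 19.1% of all genes. Erythroid markers moved with this difference: 8 of them summed to 39.6, 2479 and 7643 CPM in the 3 Eµ-TCL1 spleens and to at most 4.36 CPM in the Eµ-PRMT5 spleens. Car1 was at 0 in all of these libraries, and 4 to 6 of the 8 markers, the 4 haemoglobin genes among them, were detected in Eµ-TCL1 spleens. The 6 neutrophil markers summed to 51.6, 0 and 3371 CPM in the Eµ-TCL1 spleens and to 0 to 115.3 CPM in the Eµ-PRMT5 spleens. The Eµ-TCL1 spleen with the highest level of the 42 genes (1671 CPM) had the lowest erythroid level of the 3, and the part of these cells or their RNA was not tested. Eµ-PRMT5/TCL1 minus Eµ-PRMT5 spleens gave a median of 1.03, with 5 of 38 at an unadjusted p below 0.05 (6.87% of all genes), 0 called (edgeR; 0% of 8426) and Nuf2, Cenpe, Kif20b and Kif11 higher without overlap, beside 23.8% of all genes. Eµ-PRMT5/TCL1 minus Eµ-TCL1 spleens gave -0.08, with 0 of 38 at an unadjusted p below 0.05 (4.90%), 0 called (0%) and 0 without overlap (17.1%). The lymph nodes of these genotypes gave -0.31 over 39 genes, with 0 at an unadjusted p below 0.05 (6.49%), 0 called (0% of 9615) and 0 without overlap (44.8%). Between lymph nodes and spleens of 3 mice it was -0.64 over 36 genes, with 8 at an unadjusted p below 0.05 (8.44%) and 0 called (edgeR; 0.214% of 9335 genes), and the lowest adjusted p was 0.0863 (Cdca3, -1.42, SE 0.28).

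Myeloid precursor-like cells, led by Prtn3, Elane and Mpo, carried these genes at the highest level of the 4 classes compared. They summed to 2994 and 3293 CPM in 2 Eµ-PRMT5 spleens (spleens 1 and 4), 3133, 4439 and 2245 CPM in 3 Eµ-TCL1 spleens and 4139, 3323, 3455 and 3786 CPM in 4 Eµ-PRMT5/TCL1 spleens. Between 23.8% and 55.2% of cells per library had at least 3 UMIs of the 42 genes after thinning. The groups overlapped, and the median log2 changes were -0.21 (Eµ-PRMT5 minus Eµ-TCL1), 0.03 (Eµ-PRMT5/TCL1 minus Eµ-TCL1) and 0.21 (Eµ-PRMT5/TCL1 minus Eµ-PRMT5), with 0 called in each (edgeR; 0% of 9085 genes). At an unadjusted p below 0.05 they held 0, 1 and 2 of 42, beside 1.82%, 1.70% and 2.27% of all genes. Kif2c, Plk1, Ckap2, Anln, Kif20a and Kif20b were below all Eµ-TCL1 spleens in both Eµ-PRMT5 spleens, 6 genes beside 8.16% of all genes. Bub1b, Nusap1, Bub1, Ckap2l, Ect2, Plk1, Kif23, Top2a and Ccnb1 were higher in all Eµ-PRMT5/TCL1 than in both Eµ-PRMT5 spleens, 9 genes beside 5% of all genes. No gene separated the Eµ-PRMT5/TCL1 from the Eµ-TCL1 spleens, beside 4.66%. Without Eµ-PRMT5 spleen 4, which leaves 1 library whose spread is assumed to be that of the other groups, the medians were -0.41 against Eµ-TCL1 (3 of 42 at an unadjusted p below 0.05, beside 4.53%) and 0.47 for Eµ-PRMT5/TCL1 minus Eµ-PRMT5 (4 of 42, beside 3.82%), with 0 called in both (edgeR; 0% of 9240 genes). That library, Eµ-PRMT5 spleen 1, then lay below all Eµ-TCL1 spleens for 13 of 42 genes, beside 20.2% of all genes, and below all Eµ-PRMT5/TCL1 spleens for 23, beside 13.3%. In Eµ-PRMT5/TCL1 spleen 1 the 8 T cell markers summed to 2873 CPM in these cells, against 14.51 to 209.2 in the other 8 spleens, and the 8 myeloid precursor markers to 3579 CPM, the least of the 9 spleens. Of lymph nodes, 1 library had at least 30 cells of this cluster (1868 CPM over the 42 genes). Its cells held 75.6 CPM of myeloid precursor markers, with Elane, Ms4a3, Cebpe and Fcnb at 0, beside 2171 CPM of dendritic and 1164 CPM of T cell markers, so they went against the name of the class and were left out of its range, and no tissue test was made.

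The 42 genes differed in how far they were detected in the same cells. For each gene the share of its UMIs that fell in cells with at least 3 UMIs of the other 41 was computed after thinning. In B-like cells, of which 7.04% to 7.69% were such cells, it was 83.9% for Cenpf, 80.5% for Kif2c, a microtubule-depolymerizing kinesin, 74.9% for Ube2c, 69.8% for Ccna2, 64.4% for Mki67 and 59.5% for Top2a. It was 19.4% for Cenpa, 19.6% for Cks2 and 21.5% for Smc4, the genes with the narrowest ranges between libraries. Over the 19 libraries other than Eµ-PRMT5 spleen 4, with 4.86% to 5.37% such cells, Cenpf had 86.2%, Ccna2 77.9%, Mki67 64.7%, Cks2 17.7%, Smc4 17.5% and Cenpa 14.1%. Within Eµ-PRMT5 spleen 4, where 38.1% to 41.1% were such cells, Cenpa had 58.9%, near Ccna2 (58.9%) and Mki67 (63.2%). Smc4 was at 51.8% and Cks2 at 44.6%. Where such cells are this common the shares of all genes draw nearer, so this does not show closer detection together. Divided by the share of such cells, they were 1.52 for Cenpa, 1.35 for Smc4, 1.12 for Cks2, 1.53 for Ccna2 and 1.60 for Mki67. In the 19 other libraries these ratios were 2.90, 3.59, 3.51, 14.8 and 12.7. In T-like cells, of which 2.97% to 4.30% were such cells, Kif2c had 93.3%, Hmmr, a spindle protein, 92.4%, Mki67 68.7%, and Smc4 and Cks2 5.95% and 5.94%. Smc4 and Cks2 UMIs in T-like cells therefore lay mostly outside the cells that held the other genes. As a mean over 20 libraries, Smc4 made up 25.8% of a library's T-like UMIs of the 42 genes (5.522% to 50%). Cks2 made up 17.4% (2.555% to 34.05%). The summed level is thus weighted to them in libraries where the rest is low.

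**Figure D5:**
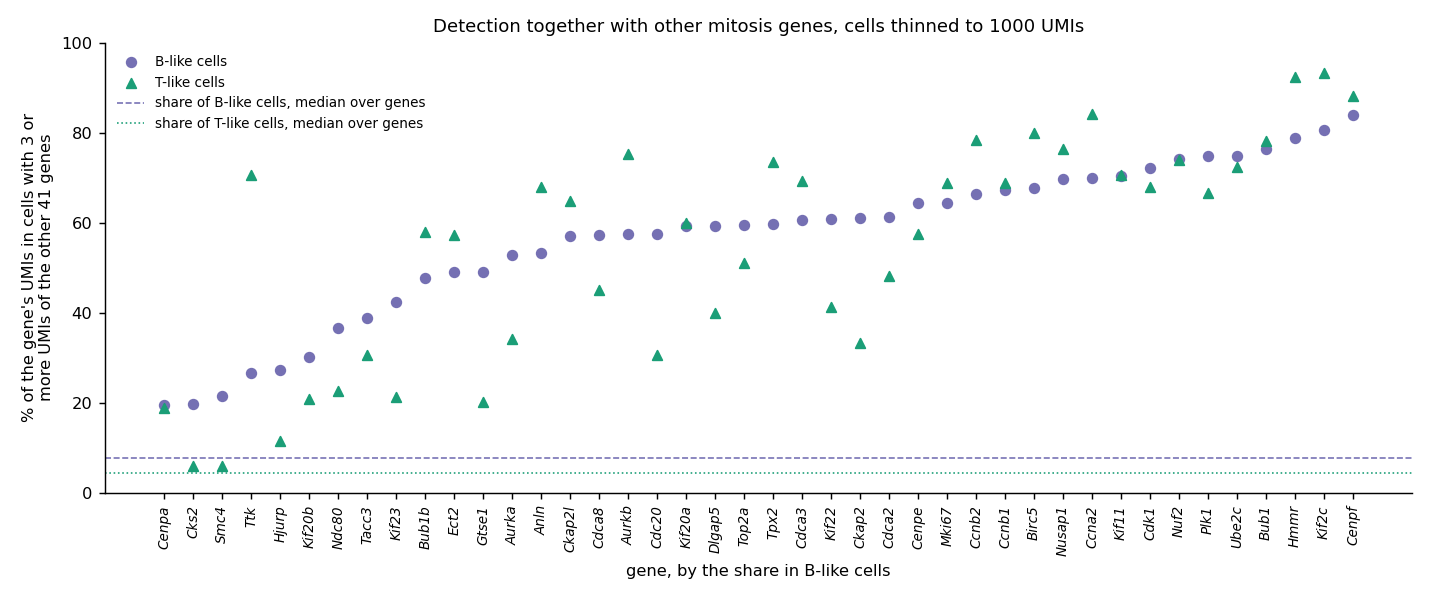
Share of each gene's UMIs (vertical axis, %) found in cells with at least 3 UMIs of the other 41 mitosis genes, for B-like (circles) and T-like cells (triangles) of all libraries, with genes ordered by the share in B-like cells. Dashed lines mark the share of all cells that are such cells; Cks2 and Smc4 lie near it in T-like cells (5.94% and 5.95%), and Cenpf, Kif2c and Hmmr far above.

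The cells with at least 3 UMIs of the 42 genes also carried more RNA. Over the 14 libraries with at least 20 such B-like cells their median depth before thinning was 1.17 to 2.78 times that of B-like cells with none, higher in all 14. In T-like cells it was higher in all 13 libraries, by 1.02 to 2.90 times. An S phase gene was detected in 70.8% to 95.1% of the former B-like cells and 43.6% to 67.7% of the latter after thinning. Cd79a was detected in 33.4% to 95.4% of the former B-like cells and 50.7% to 94.6% of the latter, and the share was lower in the former in 13 of the 14 libraries, Eµ-PRMT5 spleen 4 among them. Cd3e was detected in at most 2.94% of the former B-like cells and 2.35% of the latter.

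The 48 other mitosis genes, the 42 S phase genes, 14 brakes and 15 entry genes had 0 genes passing in each B-like and T-like comparison with all libraries (edgeR, adjusted p below 0.05). The brakes were Cdk inhibitors, the Rb family, Wee1, Pkmyt1, Btg1 and Btg2. The list named entry held G1 cyclins and their kinases, E2f1, E2f2, E2f3, Cdc25a and Myc. It also held E2f7 and E2f8, which need not promote entry. DESeq2 called some genes of these lists. In B-like cells it called 2 other mitosis and 2 S phase genes higher in Eµ-PRMT5 than Eµ-TCL1 spleens. Of all genes, 6.39% were called there in either direction. It called 1 S phase gene lower in Eµ-PRMT5/TCL1 than Eµ-PRMT5 spleens, beside 1.38% of all genes. Between tissues it called 1 entry gene in each direction, beside 2.81%. In T-like cells it called 2 other mitosis genes, 4 S phase genes and 1 brake higher in Eµ-PRMT5/TCL1 than Eµ-TCL1 lymph nodes. Of all genes, 0.936% were called there. It called 4 other mitosis genes, 2 S phase genes and 2 brakes lower in lymph nodes than spleens, beside 1.79%. In B-like cells of Eµ-PRMT5/TCL1 minus Eµ-TCL1 spleens the median log2 change was 0.55 for other mitosis genes, 0.50 for S phase genes (42 of 42 above 0), 0.02 for brakes and 0.26 for entry genes. Cdc6, a licensing factor of replication origins, was at 1.31, Rrm2, the ribonucleotide reductase subunit, at 1.08, and the cyclin Ccnd2 at 1.19 (SE 0.37, adjusted p = 0.970, edgeR). For Eµ-PRMT5 minus Eµ-TCL1 spleens S phase genes had a median of 0.77, brakes 0.05 and Myc was at 1.60 (adjusted p = 0.206, edgeR). Without Eµ-PRMT5 spleen 4 the median turned to -0.34 for S phase genes (13 of 42 above 0, 1 called higher) and to -0.16 for brakes, and it was -1.37 for other mitosis genes, of which 4 were called lower (edgeR). Of all genes, 3.03% were then called higher and 1.89% lower. For Eµ-PRMT5/TCL1 minus Eµ-PRMT5 spleens the S phase median went from -0.25 to 0.95 without that spleen. In T-like cells the medians for Eµ-PRMT5/TCL1 minus Eµ-TCL1 spleens were 1.23, 0.93, 0.30 and 0.66 in that order of lists, and 24 of 42 S phase genes had an unadjusted p below 0.05, beside 4.99% of all genes.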

How the data were processed

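Live cells of each spleen or lymph node were profiled by the authors with 10x 3′ v2 chemistry. The deposited values are raw UMI counts of every barcode, empty droplets included. The submitters' processing notes name Cell Ranger 2.0.1, Seurat 2.2.1 and GRCm38, and the matrix headers name Cell Ranger 3.1.0. Barcodes were called as cells above the 99th percentile of UMIs among the top 3000 divided by 10, keeping those with 200 genes or more and no more than 10% mitochondrial UMIs. Doublets were scored with Scrublet in scanpy 1.11.5. Its automatic threshold marked too few, so the highest scores, at 0.8% per 1000 cells, were removed (3542 cells). Cells were clustered on 2000 variable genes without 247 cell cycle genes (30 components, 15 neighbours, Leiden resolution 1) and named by markers. The naming rule was adjusted after clusters were seen and without regard to groups.

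Counts were summed per library and class with at least 30 cells and tested in edgeR 4.0.16 (R 4.3.3, TMM, filterByExpr, robust quasi-likelihood), adjusted over all genes tested. All groups of a tissue entered 1 fit, and the mouse was a block between tissues. DESeq2 1.42.0 was the alternative. Libraries of a group are separate mice. The fits were tested on simulated counts of B-like cells for Eµ-PRMT5 minus Eµ-TCL1 spleens. With the spread estimated from the data, 9 of 98 genes with a 2-fold change were called. Of genes with an 8-fold change, 77 of 96 were. The changed genes were drawn at random from all genes, each with its own spread. The median biological coefficient of variation was 0.38 over all genes and 0.96 over the 42. These counts therefore do not give the power for the 42 genes. The 42 genes and the other lists were chosen with earlier results of these data known. Genes named in full were fixed by role, and called genes and the extremes of each comparison were added. Of the other lists, the genes of largest change were named.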

Additional observations from a re-analysis of the deposited data

Results flagged for a closer look

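In 36 groups of 4 or 5 libraries, a library was set apart when its gap to the nearest other exceeded Dixon's 95% limit, which chance alone does in about 1 in 20 groups. In B-like cells, Eµ-PRMT5 spleen 4 stood apart from the other 4 in the summed level of the 42 genes (2868 CPM), in the share of cells with at least 3 of their UMIs (42.4%), in Mki67 (107 CPM) and in Top2a (167 CPM). Eµ-PRMT5/TCL1 spleen 4 stood apart with 1751 CPM summed over the 42 genes in B-like cells. In T-like cells, Eµ-PRMT5 spleen 4 stood apart with 2917 CPM and 23.4% of 47 cells, and Eµ-TCL1 spleen 1 with Mki67 at 46.4 and Top2a at 69.8 CPM. In plasma-like cells, Eµ-PRMT5 spleen 5 stood apart with 949.5 CPM.

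Classes that entered no comparison held these genes too. The summed level had a median of 2293 CPM in neutrophil precursor-like cells (13 libraries), 2125 CPM in monocyte/macrophage-like cells (17 libraries) and 3790 CPM in erythroid-like cells (3 libraries), above the B-like and T-like medians.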

How the results depend on the processing

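Among the counts of called genes and the medians of the 42 genes, 164 values under other settings kept their size and direction and 4 moved. The B-like median was 1.22 for Eµ-PRMT5/TCL1 minus Eµ-PRMT5 spleens with a replicate block and -0.69 for the genotypes' lymph nodes with cell cycle genes in the clustering, and DESeq2 called 1 gene in T-like cells between lymph nodes of the genotypes and 2 between tissues. The causes were not tested. Samples of 1 number in different genotypes did not deviate together throughout (correlations -0.07 to 0.23 in B-like and -0.30 to 0.46 in T-like cells). The numbers were taken as names only, though this check cannot exclude that some of these samples were handled together. With the replicate block, 0 of the 42 genes passed in each comparison, and Mki67 was at -1.16 in B-like and -0.085 in T-like cells for Eµ-PRMT5 minus Eµ-TCL1 spleens and at -0.0038 in B-like cells for the genotypes' lymph nodes, while Cdc20 was at 0.23 for Eµ-PRMT5/TCL1 minus Eµ-PRMT5 spleens.

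Further log2 changes turned direction. With the level of Xist as a covariate they were Mki67 at -0.019 (B-like, Eµ-PRMT5 minus Eµ-TCL1), Cenpa at 0.032 (B-like, lymph nodes), Smc4 at 0.28 (T-like, Eµ-PRMT5/TCL1 minus Eµ-TCL1) and Gtse1 at 0.017 (T-like, Eµ-PRMT5/TCL1 minus Eµ-PRMT5). With cell cycle genes in the clustering they were Mki67 at -0.21 and, in lymph nodes, -0.92, Ckap2l at -0.32 in lymph nodes, Plk1 at -0.23, Cenpf at -0.19 and Tpx2 at -0.0051 (B-like, Eµ-PRMT5/TCL1 minus Eµ-TCL1), and in T-like cells Smc4 at 0.10, Gtse1 at 0.12 and Cks2 at -0.0028.

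Leaving out 1 library at a time gave 0 to 11 called genes and medians of -1.96 to 1.06 for B-like Eµ-PRMT5 minus Eµ-TCL1 spleens, where only the fit without Eµ-PRMT5 spleen 4 turned the median, and medians of -0.30 to 2.54 for Eµ-PRMT5/TCL1 minus Eµ-PRMT5. The B-like median between tissues of the same mice ran from -0.041 to 0.27, so it also turned direction. In T-like cells the median for Eµ-PRMT5/TCL1 minus Eµ-TCL1 spleens ran from 1.16 to 2.81. In T-like cells it ran from 0.70 to 2.09 for Eµ-PRMT5/TCL1 minus Eµ-PRMT5, highest without Eµ-PRMT5 spleen 4, and in myeloid precursor-like cells it was 0.47 without that spleen, chosen after seeing the data. Single genes that turned direction ranged, for B-like Eµ-PRMT5 minus Eµ-TCL1, over -2.43 to 1.07 (Mki67) and -0.97 to 2.11 (Cdc20). For B-like Eµ-PRMT5/TCL1 minus Eµ-TCL1 they ranged over -0.012 to 1.5 (Ccna2), -0.031 to 1.01 (Aurkb), -0.029 to 0.46 (Bub1b), -0.24 to 0.59 (Plk1), -0.26 to 0.18 (Cenpa), -0.22 to 0.72 (Cenpf) and -0.77 to 0.11 (Ttk). For B-like Eµ-PRMT5/TCL1 minus Eµ-PRMT5 the ranges were -0.042 to 2.83 (Mki67) and -1.24 to 1.68 (Cdc20), and in lymph nodes -0.072 to 0.96 (Mki67) and -0.48 to 0.039 (Cenpa). In T-like cells they were -0.16 to 2.09 (Mki67), -0.47 to 3.74 (Ccnb2) and -1.36 to 0.72 (Anln) for Eµ-PRMT5 minus Eµ-TCL1, -0.32 to 0.16 (Smc4), -0.37 to 0.47 (Gtse1) and -0.84 to 0.35 (Kif22, lymph nodes). Cks2 between tissues of T-like cells was at -0.15, -0.018, -0.016 and -0.098 without single mice. Spread between libraries limits these genes: their median biological coefficient of variation in B-like cells of spleens was 0.96, against 0.38 over all genes. The SD of the median of the list between libraries was 0.16 to 1.80 over the comparisons.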
